A study of Mus musculus with 12 samples.

Results

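The comparison was between astrocytes cultured from the senescence-accelerated prone mouse SAMP8 in serum of calorie-restricted rats (SAMP8-CR, 3 samples) and in serum of rats fed ad libitum (SAMP8-AL, 3 samples), which are 6 of the 12 samples measured. The remaining 6 samples are the same pair of treatments in the senescence-resistant control strain SAMR1. All cultures came from cerebral cortex of 2-day-old pups, were used after 21 days in culture and received medium with 10% heat-inactivated rat serum for 48 h, so that cells of both groups were exposed to rat serum and differed in the diet of its donors. Total RNA was hybridised to mouse bead arrays of 24613 probes, of which 10681 were tested. A tested probe had a detection p-value under 0.05 on all 3 arrays of at least 1 of the groups. They represent 7882 named genes, each counted at its brightest tested probe, and where probes of a gene described here differ, each is given.

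Caloric restriction lowers energy intake without malnutrition, and serum of restricted animals is used to carry its circulating signals to cells in culture. Astrocytes supply neurons with metabolites and glutathione, and the genes described here include those of mitochondrial energy production, of ribosomes, of protein turnover and of the defence against oxidants. Respiratory chain complexes I to IV pass electrons to oxygen while ATP synthase uses the resulting proton gradient, and the few subunits encoded in mitochondrial DNA are made by a separate mitochondrial ribosome whose proteins are all encoded in the nucleus. The arrays measure mRNA and not the activity of these complexes.

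Most markers of the labelled cell type were present. Of 18 astrocyte markers on the array 16 were detected in all 6 SAMP8 samples, Gfap, Aqp4, Slc1a3 and Gja1 among them, while the probe of the glutamate transporter gene Slc1a2 was detected in none. The methods of the study describe cultures enriched in astrocytes that also hold microglia and a few oligodendroglia. 16 of 19 microglia and macrophage markers were detected in all 6 samples, as was the fibroblast gene Dcn, whereas the myelin genes Mbp and Mog and the endothelial gene Pecam1 were detected in none. As bulk RNA was measured, a difference in the number of cells of a type cannot be told apart from a difference in RNA per cell.

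The arrays differed in signal range. The 90th percentile of intensity was 1013, 786 and 628 in SAMP8-CR replicates 1 to 3, against 553, 737 and 616 in SAMP8-AL replicates 1 to 3, so that the pair of replicate 1 stood furthest apart. Its SD of log2 intensity was 1.61 in SAMP8-CR and 1.28 in SAMP8-AL, a difference that Z normalization removes by construction. The lowest intensity was 42.4 and 42.9 in SAMP8-CR replicates 2 and 3, and 41.6 and 40.1 in SAMP8-AL replicates 2 and 3, but 7.03 in SAMP8-CR replicate 1 and 8.00 in SAMP8-AL replicate 1. This split, which no label names, falls equally in both groups, and the values of single replicate pairs below are therefore also values within 1 set of arrays. The share of probes detected lay between 45.2% and 46.7% in SAMP8-CR and between 43.3% and 46.7% in SAMP8-AL.

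No single difference between SAMP8-CR and SAMP8-AL passed correction over all probes. In the limma fit of all 12 samples, 0 of 10681 probes passed an adjusted p of 0.05 (0% of probes), and the smallest adjusted p was 0.590. At an unadjusted p under 0.05, 386 probes were higher in SAMP8-CR than in SAMP8-AL (3.61%) and 199 were lower (1.86%). The difference was above 0 in 52.4% of probes. Centring each array on its median, without scaling its spread, moved the median difference of all genes to 0.17 on the log2 scale, and the same count was then 417 higher and 30 lower. Differences are given on the log2 scale as SAMP8-CR minus SAMP8-AL throughout, and the 95% interval of a probe reached 0.34 to either side of the estimate at the median.

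Deviations from the group means correlated across probes at 0.38, 0.43 and 0.11 for SAMP8 samples with the same replicate number. For differing numbers they correlated at -0.45 to 0.19. The samples were paired on this basis, although replicate 3 did not stand apart. Replicate 1 also lay in another set of arrays than replicates 2 and 3, and the source of the correlation was not tested. A limma fit of the 6 SAMP8 samples with the replicate number as a block gave 305 probes higher (2.86%) and 96 lower (0.899%) at an adjusted p under 0.05. This count rests on the model: it was 0 in the same paired fit without a mean-variance trend, 0 when the block was fitted over all 12 samples, and 62, 40 and 700 when the pair of replicate 1, 2 or 3 was left out. The residual variance of the paired fit had 2 degrees of freedom per probe and was drawn towards a trend weighted as 53.8. Probes past this fit are described below as passing the paired fit, and no gene named below passed the fit of 12 samples. Of the 305 higher probes, 273 were higher in all 3 pairs, beside 21.1% of all probes, and 219 had no overlap between the groups, beside 11.2%. In 283 of the 305 the rise was larger in the pair of replicate 1 than in that of replicate 3. Without the pair of replicate 1, the 62 probes were 30 higher and 32 lower. Of the 96 lower probes 93 were lower in all 3 pairs, beside 17.6%, and 84 had no overlap, beside 8.53%. Since the difference itself chose these probes, these shares describe them and test nothing.

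**Figure D1:**
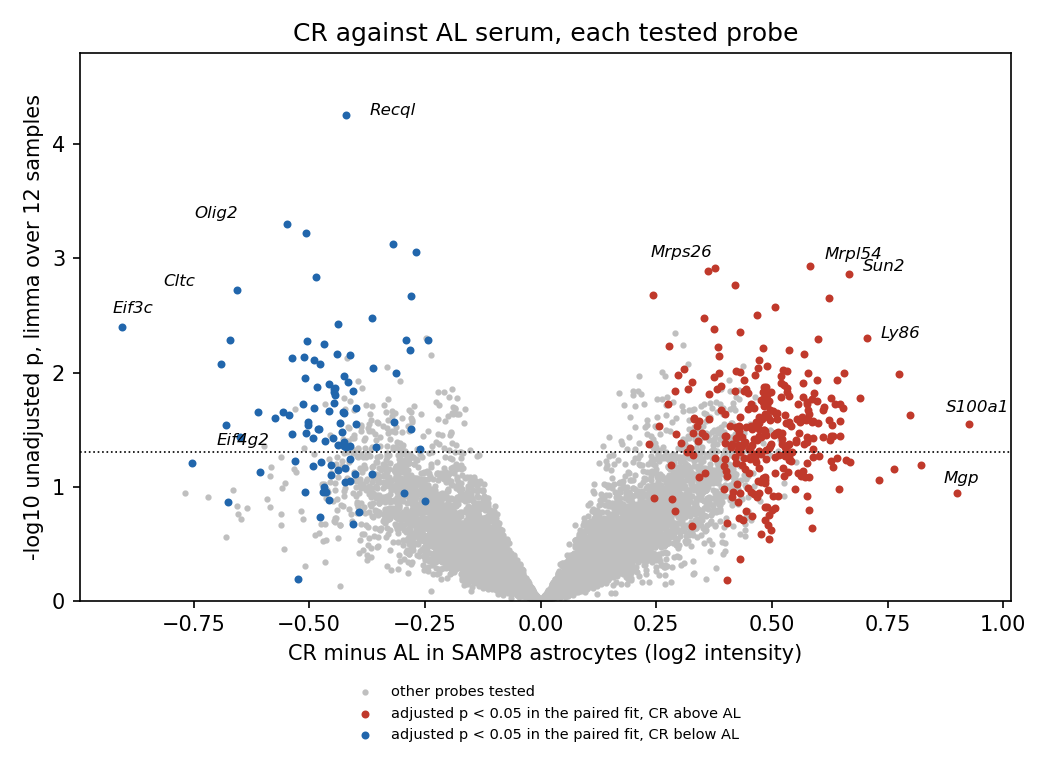
Difference between SAMP8-CR and SAMP8-AL (horizontal axis, log2 intensity) against the unadjusted p of the 12-sample limma fit (vertical axis, -log10 scale) for 10681 probes, with the threshold of 0.05 as a dotted line. The 305 probes in red and the 96 in blue passed the paired fit, and they lie between a difference of -0.90 for Eif3c and 0.93 for S100a1.

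Nuclear genes of the respiratory chain mostly had differences above 0, and a minority of them passed a test. For complex I, the entry point of electrons from NADH, 27 of 29 tested members had a difference above 0 and the median was 0.35, beside 52.6% of all genes above 0 and a median of 0.012. 6 members were higher and 0 lower at an unadjusted p under 0.05, beside 3.62% and 1.46% of all genes, and 7 were higher and 0 lower in the paired fit, beside 2.83% and 0.698%. In 12 members all SAMP8-CR samples lay above all SAMP8-AL samples, beside 11.2% of all genes, and 20 were higher in all 3 pairs, beside 21.1%. The median over the members was 0.38, 0.41 and 0.12 in the pairs of replicates 1, 2 and 3.

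Ndufa5, an accessory subunit of complex I, had normalized intensities of 1425, 1159 and 782 in SAMP8-CR, against 635, 717 and 771 in SAMP8-AL. Replicates 1 and 2 with CR serum stood well above the rest and replicate 3 lay close to its AL partner, although the groups did not overlap. The difference was 0.63 ± 0.27 (SE), unadjusted p = 0.0359, and adjusted p = 0.00549 in the paired limma fit. A second probe of Ndufa5 read 739, 463 and 399.7 in SAMP8-CR, against 340.0, 337 and 341 in SAMP8-AL, with a difference of 0.60. Ndufa8, another accessory subunit, read 821, 937 and 797 in SAMP8-CR, against 632, 659 and 679 in SAMP8-AL, a difference of 0.37 ± 0.14 (SE), unadjusted p = 0.0206. Its groups did not overlap either, and its adjusted p = 0.0652 in the paired limma fit missed the threshold. Ndufb7, Ndufb3, Ndufa2, Ndufa3, Ndufa7 and Ndufb9 also passed the paired fit, with differences of 0.58, 0.53, 0.53, 0.52, 0.51 and 0.43. The pairs did not all go the same way, as Ndufa3 differed by -0.25 and Ndufb3 by -0.047 in replicate 3. Ndufb9 differed by 0.020 there, and the remaining genes of these were higher in all 3 pairs. The lowest members were Ndufv1 at -0.067 and Ndufa10 at -0.037, whose intervals span 0.

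Complexes II to IV showed a smaller and less even difference. 18 of 24 tested members had a difference above 0 and the median was 0.22, with 4 higher and 0 lower at an unadjusted p under 0.05 (beside 3.62% and 1.46% of all genes) and 2 passing the paired fit (beside 2.83%). Cox7c, a small subunit of cytochrome c oxidase, read 3891, 3546 and 2430.0 in SAMP8-CR, against 2261, 1867 and 2347 in SAMP8-AL, which gives 0.59 ± 0.24 (SE), unadjusted p = 0.0273, and adjusted p = 0.0352 in the paired limma fit. Replicates 1 and 2 carried that difference while replicate 3 differed by 0.050. Cox17, a copper chaperone for the same complex, read 1789, 1597 and 1646 in SAMP8-CR, against 1306, 1211 and 1271 in SAMP8-AL, without overlap and by a like amount in each pair. Its difference was 0.41 ± 0.15 (SE), unadjusted p = 0.0146. For ATP synthase 11 of 14 tested members had a difference above 0 and the median was 0.20. Atp5e, the epsilon subunit of its catalytic head, read 572, 495 and 435 in SAMP8-CR, against 325, 369 and 319 in SAMP8-AL, and all 3 SAMP8-CR samples were above all SAMP8-AL samples. The difference was 0.56 ± 0.23 (SE), unadjusted p = 0.0269, and adjusted p = 0.00996 in the paired limma fit.

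The mitochondrial ribosome was the longest of the lists that leaned one way. 62 of 66 tested members had a difference above 0 and the median was 0.29, 12 were higher and 0 lower at an unadjusted p under 0.05, beside 3.62% and 1.46% of all genes, and 11 were higher in the paired fit, beside 2.83%. In 32 members all SAMP8-CR samples lay above all SAMP8-AL samples, beside 11.2% of genes, and in 0 all lay below, beside 8.09%. 43 members were higher in all 3 pairs, beside 21.1%. The pair medians were 0.36, 0.28 and 0.12. Mrpl54, a protein of the large subunit, read 1018, 1159 and 973 in SAMP8-CR, against 637, 729 and 736 in SAMP8-AL. Every SAMP8-CR sample was above every SAMP8-AL sample, and the pairs differed by 0.68, 0.67 and 0.40. The difference was 0.58 ± 0.14 (SE), unadjusted p = 0.00116, and adjusted p = 0.00366 in the paired limma fit. Mrps26, of the small subunit, read 159.7, 178 and 151 in SAMP8-CR, against 128, 118 and 129 in SAMP8-AL, again without overlap, which gives 0.38 ± 0.094 (SE), unadjusted p = 0.00122, and adjusted p = 0.0235 in the paired limma fit. Mrpl35, of the large subunit, differed by 0.31 ± 0.095 (SE), unadjusted p = 0.00571, and its adjusted p = 0.135 in the paired limma fit missed the threshold.

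**Figure D2:**
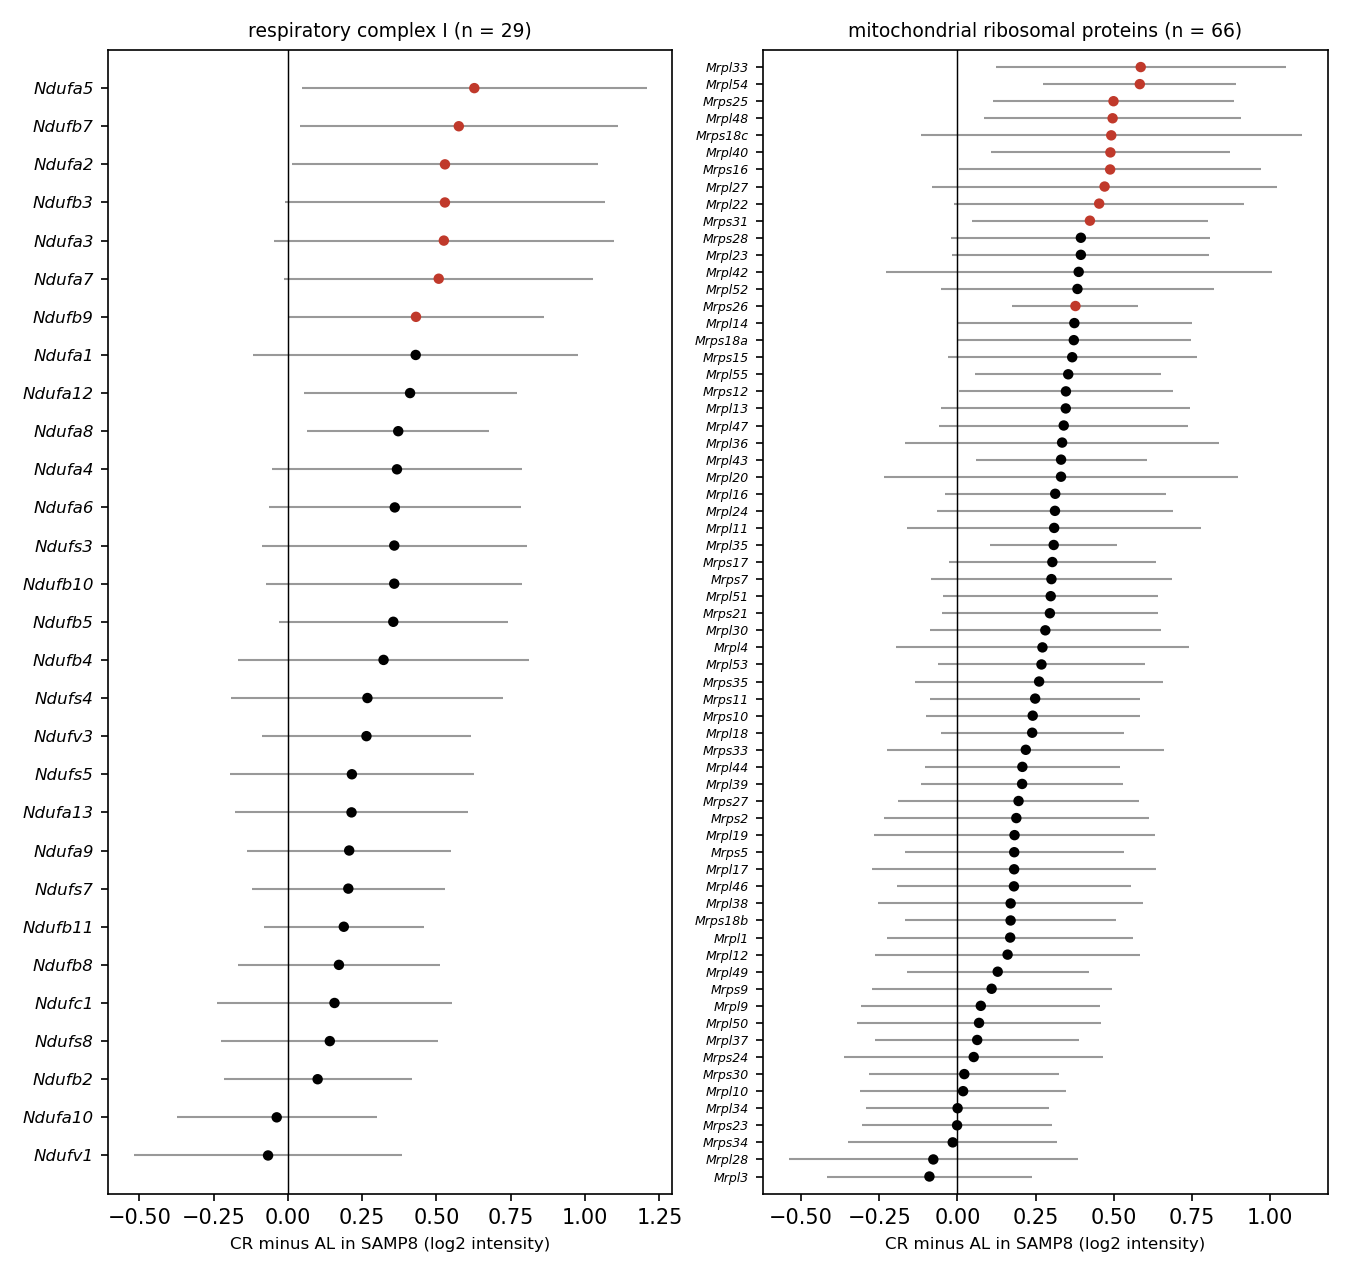
Difference SAMP8-CR minus SAMP8-AL (horizontal axis, log2 intensity) with its 95% interval from the 12-sample limma fit for every tested member of complex I (left, 29 genes) and of the mitochondrial ribosome (right, 66 genes), genes in order of the difference, red where they passed the paired fit. 27 of 29 and 62 of 66 points lie above 0 and most intervals cross it.

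Promoters of the mitochondrial ribosomal genes are shown because these genes leaned one way together. Of the 12 members at an unadjusted p under 0.05, 11 had a promoter in the RefSeq table of GRCm38.p6. A set of 4 motifs was searched in the 250 bases before the start, the ETS core, the CCAAT box, the nuclear respiratory factor 1 site and the YY1 core. The ETS core CCGGAAG bound by ETS factors such as GABPA, searched on both strands, was present in 15 of 58 (25.9%) of the list's promoters, 913 of 6444 (14.2%) of those of all tested genes and 1906 of 27025 (7.05%) of all promoters of that length. It was present in 8 of 35 (22.9%) for the cytosolic ribosome, 2 of 27 (7.41%) for complex I and 0 of 12 (0%) for the proteasome core. The CCAAT box, with the letters CCAAT, was present in 21 of 58 (36.2%) of the mitochondrial ribosomal promoters and 2341 of 6444 (36.3%) of those of all tested genes. The nuclear respiratory factor 1 site was present in 2 of 58 (3.45%) and 101 of 6444 (1.57%), and the YY1 core in 3 of 58 (5.17%) and 138 of 6444 (2.14%), in the same order. Of the 11 promoters 3 held the core, and capitals mark it, on either strand, in those of the 2 genes with the smallest p, Mrps26 (chr2:130563507-130563756, plus strand) and Mrpl43 (chr19:45006443-45006692, minus strand), both 5′ to 3′ in the direction of the gene. A match describes the letters and does not show that a factor binds there.
Mrps26: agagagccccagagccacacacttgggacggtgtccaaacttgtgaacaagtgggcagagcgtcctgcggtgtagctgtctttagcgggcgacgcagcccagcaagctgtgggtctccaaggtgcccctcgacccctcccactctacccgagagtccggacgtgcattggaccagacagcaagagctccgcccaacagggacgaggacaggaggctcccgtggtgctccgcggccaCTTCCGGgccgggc
Mrpl43: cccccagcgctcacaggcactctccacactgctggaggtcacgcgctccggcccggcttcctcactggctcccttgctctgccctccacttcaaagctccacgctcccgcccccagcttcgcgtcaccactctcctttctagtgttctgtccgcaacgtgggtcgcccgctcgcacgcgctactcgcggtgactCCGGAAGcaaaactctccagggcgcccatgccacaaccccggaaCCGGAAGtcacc

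Mrpl43, the second of these genes, codes for a protein of the large subunit. Its normalized intensities were 1012, 1141 and 1142 in SAMP8-CR, against 826, 875 and 917 in SAMP8-AL, a difference of 0.33 ± 0.13 (SE), unadjusted p = 0.0210, and adjusted p = 0.110 in the paired limma fit, while a second, dimmer probe of Mrpl43 differed by 0.17 ± 0.16 (SE), unadjusted p = 0.298. Gabpa, which codes for the DNA-binding subunit of the ETS factor, read 342, 313 and 389 in SAMP8-CR, against 458, 455 and 388 in SAMP8-AL, and differed by -0.32 ± 0.15 (SE), unadjusted p = 0.0463. It was lower with CR serum in replicates 1 and 2 and level in replicate 3, and a second, dimmer probe of Gabpa differed by -0.0044 ± 0.12 (SE), unadjusted p = 0.970. Over the 22 tested genes of sirtuins and mitochondrial biogenesis, which include it, the median difference was 0.00081.

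Cytosolic ribosomal proteins and the proteasome core leaned the same way. For the cytosolic ribosome 38 of 43 tested members had a difference above 0 and the median was 0.25, with pair medians of 0.18, 0.44 and 0.084. 6 members were higher and 0 lower at an unadjusted p under 0.05, beside 3.62% and 1.46% of all genes, and 2 passed the paired fit, beside 2.83%. Rps15 read 1798, 1974 and 2068 in SAMP8-CR, against 1569, 1438 and 1593 in SAMP8-AL, without overlap, a difference of 0.34 ± 0.15 (SE), unadjusted p = 0.0357. Rpl7 differed by 0.50 ± 0.21 (SE), unadjusted p = 0.0323 and Rpl37a by 0.52 ± 0.23 (SE), unadjusted p = 0.0391. Ribosomal protein genes have many processed pseudogenes, and cross-hybridisation of their probes was not tested. Of the proteasome core, whose alpha and beta rings degrade tagged proteins, all 15 tested members had a difference above 0, with a median of 0.27 and pair medians of 0.31, 0.36 and 0.10. Of these 2 were higher at an unadjusted p under 0.05, beside 3.62% of all genes, and 1 in the paired fit, beside 2.83%. Psmb5, a catalytic subunit, read 878, 987 and 969 in SAMP8-CR, against 685, 824 and 646 in SAMP8-AL, a difference of 0.40 ± 0.17 (SE), unadjusted p = 0.0363, and adjusted p = 0.0469 in the paired limma fit. Psma1, an alpha ring subunit, read 1432, 1379.7 and 1128 in SAMP8-CR, against 1159, 885 and 1025 in SAMP8-AL, a difference of 0.36 ± 0.16 (SE), unadjusted p = 0.0350. Psmd10, an assembly chaperone of the proteasome that is no member of the list, read 176, 167 and 161 in SAMP8-CR, against 111, 128 and 116 in SAMP8-AL. Its SAMP8-CR samples were close to each other and all above SAMP8-AL, with a difference of 0.51 ± 0.14 (SE), unadjusted p = 0.00267, and adjusted p = 0.00196 in the paired limma fit. A pair of brighter probes of Psmd10 also had no overlap and differed by 0.34 and 0.33, but neither passed the paired fit.

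In replicate 3 these lists were nearest to no difference, except ATP synthase, which was nearest in replicate 1 at 0.065. The replicate 3 median was between 0.072 for complexes II to IV and 0.14 for ATP synthase among the 6 lists of respiratory chain, ATP synthase, ribosomes and proteasome core. The replicate 2 pair ranged from 0.28 for the mitochondrial ribosome to 0.44 for the cytosolic ribosome. With quantile normalization the medians over all samples were 0.35 for complex I, 0.25 for the mitochondrial ribosome, 0.34 for the cytosolic ribosome and 0.25 for the proteasome core. With median centring they were 0.65, 0.49, 0.71 and 0.61 in the same order, beside 0.17 for all genes. Without the pair of replicate 1 they were 0.30, 0.21, 0.25 and 0.26. The paired fit without that pair called 0, 2, 0 and 0 members of these lists higher, against 7, 11, 2 and 1 with it. Of all 7882 genes tested, 18 were higher without that pair, against 223 with all pairs.

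**Figure D3:**
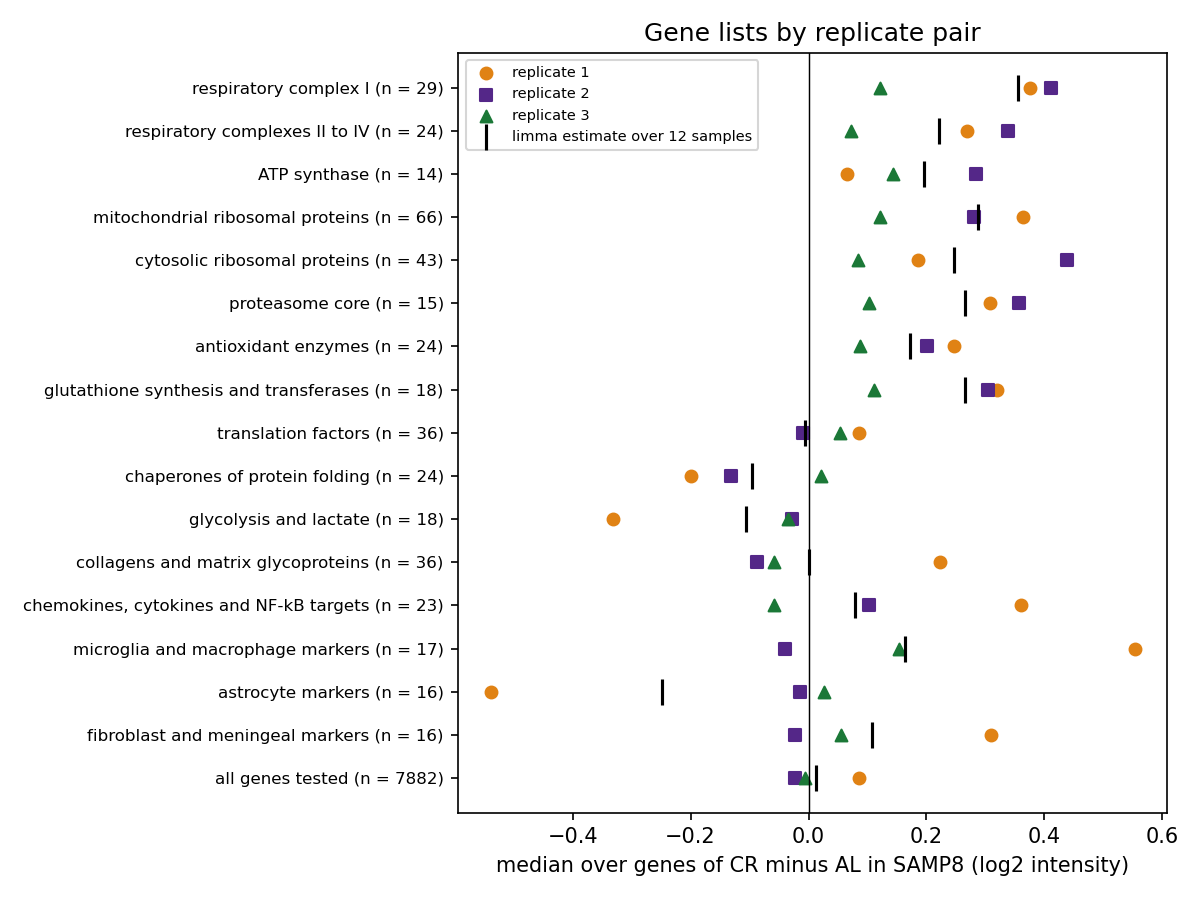
Median over the tested genes of each list of the difference SAMP8-CR minus SAMP8-AL (horizontal axis, log2 intensity) in the pairs of replicates 1, 2 and 3 and in the 12-sample limma fit (bar). The lists of respiratory chain, ATP synthase, ribosomes, proteasome, antioxidant enzymes and glutathione genes lie above 0 in every pair. In replicates 1, 2 and 3 microglia markers lie at 0.55, -0.040 and 0.15 and astrocyte markers at -0.54, -0.015 and 0.027.

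Few genes of the oxidant defence passed a test. Of 24 antioxidant enzymes 19 had a difference above 0, with a median of 0.17, but 2 were higher and 0 lower at an unadjusted p under 0.05, beside 3.62% and 1.46% of all genes, and 1 passed the paired fit, beside 2.83%. Sod1, the cytosolic superoxide dismutase, read 2839, 2501 and 2131 in SAMP8-CR, against 2025, 1853 and 1788 in SAMP8-AL. All SAMP8-CR samples were above all SAMP8-AL samples and the difference was 0.39 ± 0.17 (SE), unadjusted p = 0.0332, with adjusted p = 0.125 in the paired limma fit. Gpx8, a glutathione peroxidase-like enzyme of the endoplasmic reticulum, read 3447, 3189 and 3476 in SAMP8-CR, against 2376, 2155 and 2659.5 in SAMP8-AL, likewise without overlap, a difference of 0.50 ± 0.21 (SE), unadjusted p = 0.0319, and adjusted p = 0.0743 in the paired limma fit. A second probe of Gpx8 differed by 0.48 ± 0.21 (SE), unadjusted p = 0.0364, and adjusted p = 0.0452 in the paired limma fit. For glutathione synthesis and transferases 14 of 18 tested members had a difference above 0 and the median was 0.27. Of these 1 was higher at an unadjusted p under 0.05 and 0 in the paired fit, beside 3.62% and 2.83% of all genes. Gstz1, a transferase that also acts in tyrosine breakdown, read 456, 416 and 383 in SAMP8-CR, against 295, 314 and 354 in SAMP8-AL, a difference of 0.38 ± 0.16 (SE), unadjusted p = 0.0333. Targets of the oxidant-responsive factor NRF2 had 6 of 12 above 0 and a median of -0.025, which was 0.056 with quantile normalization. Their pair medians were all above 0, at 0.037, 0.092 and 0.16.

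The genes that were followed up by qPCR for this comparison were picked from the same samples, so their direction here is not independent evidence. All 10 of them had a difference above 0, from 0.30 for Atox1 to 0.56 for Atp5e, with a median of 0.41. 6 were higher without overlap between the groups, beside 11.2% of all genes. 3 were higher at an unadjusted p under 0.05, beside 3.62% of all genes, which were Atp5e, Gpx8 and Sod1. At its brightest probe only Atp5e passed the paired fit, beside 2.83% of all genes higher. Mrpl14 differed by 0.37 ± 0.18 (SE), unadjusted p = 0.0515, Cox6b1 by 0.46 ± 0.24 (SE), unadjusted p = 0.0758, Uqcrh by 0.53 ± 0.29 (SE), unadjusted p = 0.0928 and Ndufa1 by 0.43 ± 0.26 (SE), unadjusted p = 0.113. Nudt1, which clears oxidised nucleotides, differed by 0.34 ± 0.20 (SE), unadjusted p = 0.111 and Gpx3, a secreted glutathione peroxidase, by 0.31 ± 0.41 (SE), unadjusted p = 0.463. Ndufa1 read 3287, 3217 and 1882 in SAMP8-CR, against 2346, 1786 and 1941 in SAMP8-AL, so that replicate 3 with CR serum lay below its AL partner.

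The largest negative difference was in Eif3c. This gene, which codes for a subunit of the initiation factor that brings the small ribosomal subunit to mRNA, read 761, 932 and 1182 in SAMP8-CR, against 1710.3, 1808 and 1777 in SAMP8-AL. Even the highest SAMP8-CR sample was well below the lowest SAMP8-AL sample, and the difference was -0.90 ± 0.26 (SE), unadjusted p = 0.00399, with adjusted p = 2.30e-05 in the paired limma fit. A second probe of Eif3c read 784, 815 and 746 in SAMP8-CR, against 1259, 1111 and 989 in SAMP8-AL, a difference of -0.51 ± 0.16 (SE), unadjusted p = 0.00726, also without overlap. Eif4g2, which supports translation that does not need the mRNA cap, read 502, 577 and 612 in SAMP8-CR, against 935, 951 and 819 in SAMP8-AL, a difference of -0.68 ± 0.28 (SE), unadjusted p = 0.0289, and adjusted p = 0.000928 in the paired limma fit. A second probe of Eif4g2 differed by only -0.23 ± 0.23 (SE), unadjusted p = 0.349, with adjusted p = 0.401 in the paired limma fit and overlap between the groups. The translation factors as a list did not lean either way, with 16 of 36 above 0 and a median of -0.0053. Eif4ebp1, an inhibitor of cap-dependent initiation, read 1023, 1465 and 1248 in SAMP8-CR, against 777, 1001 and 964 in SAMP8-AL, a difference of 0.44 ± 0.20 (SE), unadjusted p = 0.0411, and adjusted p = 0.0294 in the paired limma fit.

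Recql, a DNA helicase of the RecQ family, had the smallest p of all named probes in the fit of 12 samples. It read 109, 107 and 112 in SAMP8-CR, against 139, 150.5 and 149.8 in SAMP8-AL, with a gap between the groups and little spread in each, which gives -0.42 ± 0.075 (SE), unadjusted p = 5.53e-05, and adjusted p = 0.00325 in the paired limma fit. The brighter probe of Recql did not show this, with 142, 148 and 139 in SAMP8-CR, against 164, 150.3 and 145 in SAMP8-AL, a difference of -0.10 ± 0.090 (SE), unadjusted p = 0.291, and adjusted p = 0.663 in the paired limma fit. Olig2, a transcription factor that specifies oligodendrocytes, read 149, 132 and 149 in SAMP8-CR, against 239, 208 and 184 in SAMP8-AL, a difference of -0.55 ± 0.12 (SE), unadjusted p = 0.000497, and adjusted p = 0.00621 in the paired limma fit. Its relative Olig1 read 18540, 15803 and 25168 in SAMP8-CR, against 60132, 20868 and 29033 in SAMP8-AL, lower in each pair with the widest gap in replicate 1. The oligodendrocyte and precursor markers did not lean either way as a list, with 3 of 6 above 0 and a median of 0.022. Among them Cnp differed by 0.29 ± 0.20 (SE), with all SAMP8-CR samples above all SAMP8-AL samples. Steap4, a metalloreductase, read 113, 112 and 123 in SAMP8-CR, against 165, 192 and 141 in SAMP8-AL, a difference of -0.51 ± 0.12 (SE), unadjusted p = 0.000604. A second probe of Steap4 differed by -0.42 ± 0.13 (SE), unadjusted p = 0.00747, also without overlap. Cltc, the heavy chain of clathrin, read 659.5, 654 and 941 in SAMP8-CR, against 1112, 1248 and 1143 in SAMP8-AL, a difference of -0.66 ± 0.17 (SE), unadjusted p = 0.00188. The groups did not overlap in Recql, Olig2, Steap4 and Cltc, whereas the highest SAMP8-CR sample of Olig1 exceeded the lowest SAMP8-AL sample.

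**Figure D4:**
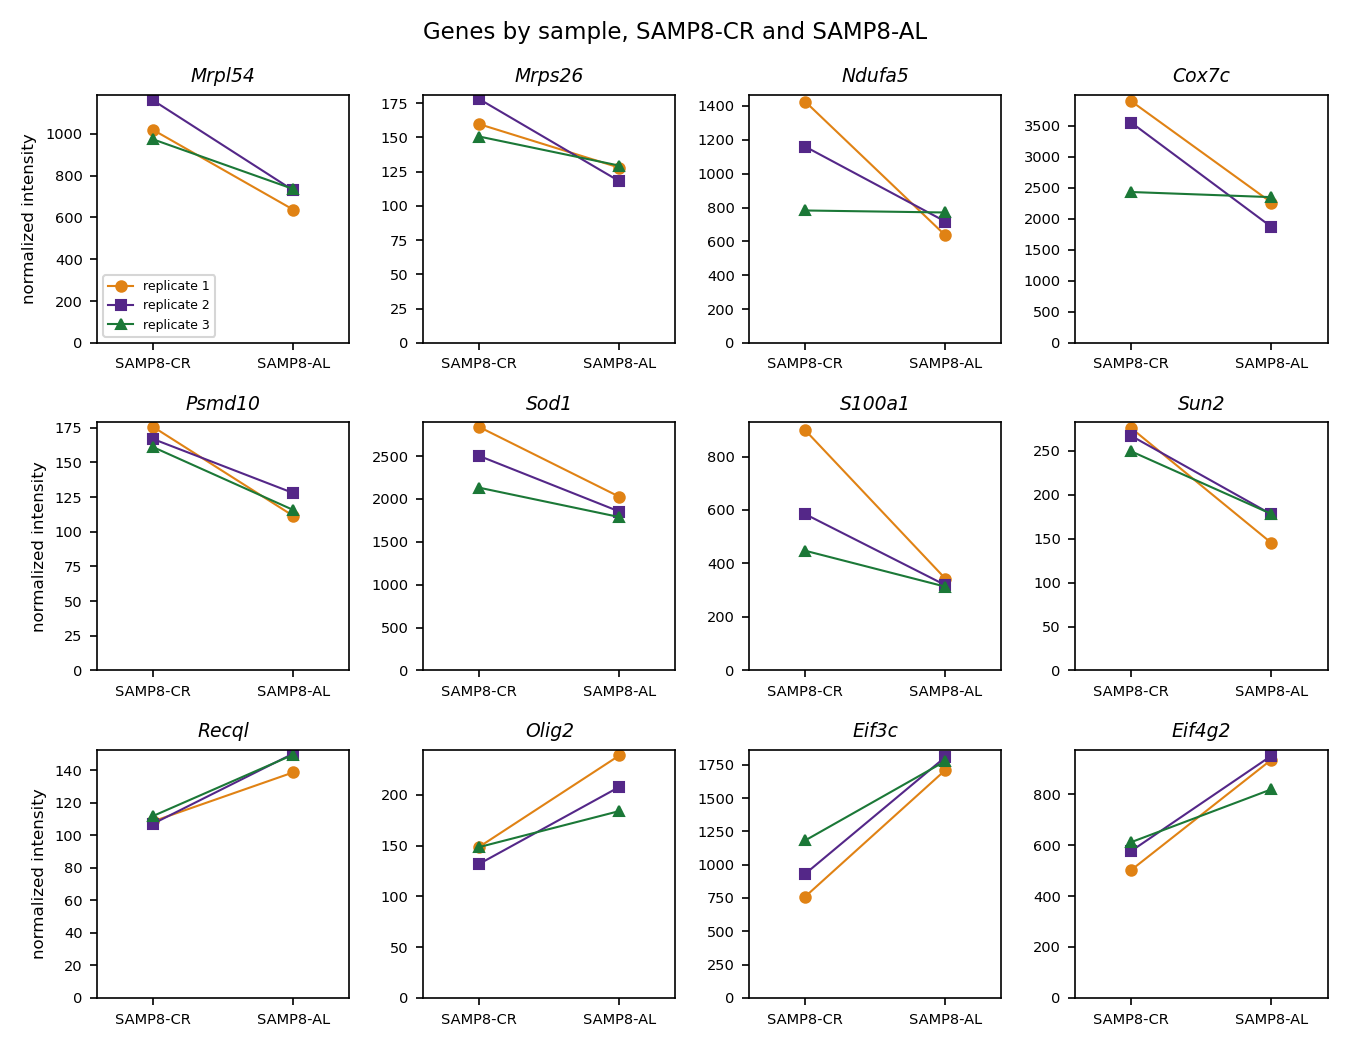
Normalized intensity (vertical axes, linear from 0) of 12 genes in SAMP8-CR (left) and SAMP8-AL (right), with a line joining the samples of each replicate number. All 3 lines run the same way in every panel, steeply for Eif3c, and nearly flat for replicate 3 in Ndufa5 and Cox7c. For Recql, Eif4g2 and Psmd10 a dimmer probe of the gene is shown.

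Vps13a and 1 probe of Rbm12 were near the detection limit. The probe of Vps13a, a lipid transfer protein, and this probe of Rbm12, an RNA-binding protein, were detected in all 3 SAMP8-AL samples and in 0 SAMP8-CR samples, so that only a bound can be given, set at the lowest detected intensity of each array. Vps13a was at least 1.20-fold lower in SAMP8-CR, with adjusted p = 0.00996 in the paired limma fit. The Rbm12 probe was at least 1.25-fold lower, with adjusted p = 0.000928 in the paired limma fit, whereas the other probes of Rbm12, both brighter, differed by -0.030 and -0.041 with overlap between the groups, so that no difference is given for the gene. Of the other large negative differences, Ltbp3, which binds latent TGF-beta, read 347, 359 and 387 in SAMP8-CR, against 462, 732 and 598 in SAMP8-AL, a difference of -0.69 ± 0.23 (SE), unadjusted p = 0.00841. Its brighter probes differed by -0.38 and -0.49, also without overlap, and did not pass the paired fit. The cytoskeletal genes Tubb5, a beta tubulin, and Mapre1, which binds growing microtubule ends, differed by -0.61 ± 0.24 (SE), unadjusted p = 0.0219 and -0.57 ± 0.23 (SE), unadjusted p = 0.0250. Ttc3, a ubiquitin ligase, differed by -0.56 ± 0.22 (SE), unadjusted p = 0.0223 and Agrn, a matrix proteoglycan, by -0.60 ± 0.27 (SE), unadjusted p = 0.0439. At these probes all but Agrn passed the paired fit. A brighter probe of Tubb5 differed by -0.66 ± 0.43 (SE), unadjusted p = 0.147, with overlap between the groups, and a dimmer probe of Ttc3 by 0.0011 ± 0.26 (SE).

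Among the positive differences, S100a1, a calcium-binding protein, had the largest of all tested probes. It read 898, 584 and 447 in SAMP8-CR, against 343, 319 and 313 in SAMP8-AL, so that replicate 1 with CR serum was furthest from the AL samples, which were close to each other. The difference was 0.93 ± 0.38 (SE), unadjusted p = 0.0280, and adjusted p = 2.30e-05 in the paired limma fit. Mgp, a matrix inhibitor of calcification, read 496, 1228 and 837 in SAMP8-CR, against 210.0, 699 and 534 in SAMP8-AL. The groups overlapped, yet each SAMP8-CR sample was above its partner by 1.24, 0.81 and 0.65, so that adjusted p = 2.02e-05 in the paired limma fit stands beside an unadjusted p of 0.112 in the limma fit of 12 samples. Sun2, which links the nuclear lamina to the cytoskeleton, read 276, 267 and 249 in SAMP8-CR, against 145, 178 and 178 in SAMP8-AL, a difference of 0.67 ± 0.17 (SE), unadjusted p = 0.00137, and adjusted p = 0.00319 in the paired limma fit. Snrpd1, a core protein of splicing particles, read 1249, 1089 and 768 in SAMP8-CR, against 578, 628 and 684 in SAMP8-AL, a difference of 0.69 ± 0.25 (SE), unadjusted p = 0.0167. Fkbp2, a prolyl isomerase of the endoplasmic reticulum, read 951, 883 and 710.2 in SAMP8-CR, against 508, 528 and 586 in SAMP8-AL, a difference of 0.64 ± 0.22 (SE), unadjusted p = 0.0117. Hint3, of the histidine triad family, differed by 0.65 ± 0.25 (SE), unadjusted p = 0.0204, Pbdc1 by 0.65 ± 0.24 (SE), unadjusted p = 0.0189, the vesicle SNARE gene Vamp8 by 0.63 ± 0.27 (SE), unadjusted p = 0.0357 and Sac3d1 by 0.36 ± 0.13 (SE), unadjusted p = 0.0155. The groups overlapped in Mgp and Sac3d1 and in none of the others named here.

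Genes of stress and replication were described from their lists. Ddit3, a transcription factor of the stress response of the endoplasmic reticulum, read 284, 314 and 344 in SAMP8-CR, against 211, 228 and 239 in SAMP8-AL, a difference of 0.47 ± 0.16 (SE), unadjusted p = 0.00913 that was of like size in each pair. Its list of amino acid response and endoplasmic reticulum stress had 16 of 27 members above 0. Of 25 replication genes, 2 were higher at an unadjusted p under 0.05, beside 3.62% of all genes. They were the replication protein Rpa3 at 0.54 ± 0.22 (SE), unadjusted p = 0.0268 and the origin recognition subunit Orc6 at 0.49 ± 0.20 (SE), unadjusted p = 0.0244. Of 11 tested mitosis genes 0 had an unadjusted p under 0.05, beside 3.62% of all genes higher and 1.46% lower. Glycolysis and lactate genes had 5 of 18 above 0 and a median of -0.11, with pair medians of -0.33, -0.027 and -0.034, and chaperones of protein folding 5 of 24, with a median of -0.10. With median centring both medians were positive, at 0.29 and 0.22.

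Microglial genes had positive differences mainly in replicate 1. 14 of 17 tested markers had a difference above 0, with a median of 0.16 and pair medians of 0.55, -0.040 and 0.15. 3 were higher and 0 lower at an unadjusted p under 0.05, beside 3.62% and 1.46% of all genes. 6 were higher and 0 lower in the paired fit, beside 2.83% and 0.698%. In all 3 pairs 7 were higher and 1 lower, beside 21.1% and 16.8%, and 1 was higher without overlap, beside 11.2%. Aif1, which marks microglia, read 282, 255 and 170.0 in SAMP8-CR, against 123, 181 and 161 in SAMP8-AL, a difference of 0.59 ± 0.24 (SE), unadjusted p = 0.0264, and adjusted p = 0.0106 in the paired limma fit. A second probe of Aif1 differed by 0.37 ± 0.20 (SE), unadjusted p = 0.0932, and adjusted p = 0.0815 in the paired limma fit. Trem2, a microglial receptor, read 492, 571 and 466 in SAMP8-CR, against 224, 458 and 384 in SAMP8-AL, a difference of 0.58 ± 0.26 (SE), unadjusted p = 0.0405. Fcer1g, a signalling chain of immune receptors, differed by 0.56 ± 0.23 (SE), unadjusted p = 0.0263. Ly86, a partner of a Toll-like receptor homologue on myeloid cells, read 791, 754 and 647 in SAMP8-CR, against 338, 619 and 425 in SAMP8-AL, a difference of 0.71 ± 0.21 (SE), unadjusted p = 0.00495. Saa3, an acute-phase protein, read 818, 1135 and 768 in SAMP8-CR, against 320.5, 809 and 549.7 in SAMP8-AL, so that 1 SAMP8-AL sample reached into the SAMP8-CR range, with a difference of 0.77 ± 0.26 (SE), unadjusted p = 0.0104, and adjusted p = 0.000438 in the paired limma fit. The chemokine gene Ccl3 differed by 0.43 ± 0.20 (SE), unadjusted p = 0.0436 and the adhesion molecule gene Vcam1 by -0.42 ± 0.19 (SE), unadjusted p = 0.0395.

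The astrocyte markers differed in the same pair in the other direction, with a median of -0.25 and pair medians of -0.54, -0.015 and 0.027. At an unadjusted p under 0.05, 0 of 16 were higher and 0 lower, beside 3.62% and 1.46% of all genes. Median centring turned the median of -0.25 to 0.16, and quantile normalization gave -0.091. The summed normalized intensity of the 18 astrocyte markers was 76199, 80608 and 119106 in SAMP8-CR, against 163700, 82419 and 107304 in SAMP8-AL. That of the 19 microglial markers was 21359.9, 28409 and 27810.4 in SAMP8-CR, against 20156, 28927 and 24809.9 in SAMP8-AL, with overlap between the groups in both lists. Dcn, a matrix proteoglycan of fibroblasts, read 245, 1430.0 and 2003 in SAMP8-CR, against 180.2, 1377 and 1345 in SAMP8-AL, so that it differed more between replicates than between the groups. The part of these markers in the differences of other genes was not tested.

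Short genes had higher differences than long genes. The genes of the respiratory chain and ribosome lists span few bases in the genome, with a median of 7079 for complex I, 7610 for the mitochondrial ribosome and 3175 for the cytosolic ribosome, beside 22572 for all genes. Across 7878 genes with a RefSeq span, Spearman's correlation of the span with the difference was -0.30 in SAMP8, and -0.17, -0.35 and -0.19 in the single pairs. Genes are not independent replicates and this is a description. The median difference was 0.13 in the decile of shortest genes and -0.051 in the decile of longest genes. The 2214 genes of the 3 lowest deciles that belong to no respiratory chain, ATP synthase, ribosomal or proteasome list had a median of 0.078, and 6.41% of them were higher at an unadjusted p under 0.05. Complex I stood at 0.35 and the mitochondrial ribosome at 0.29. The part of gene length in these lists was not tested.

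**Figure D5:**
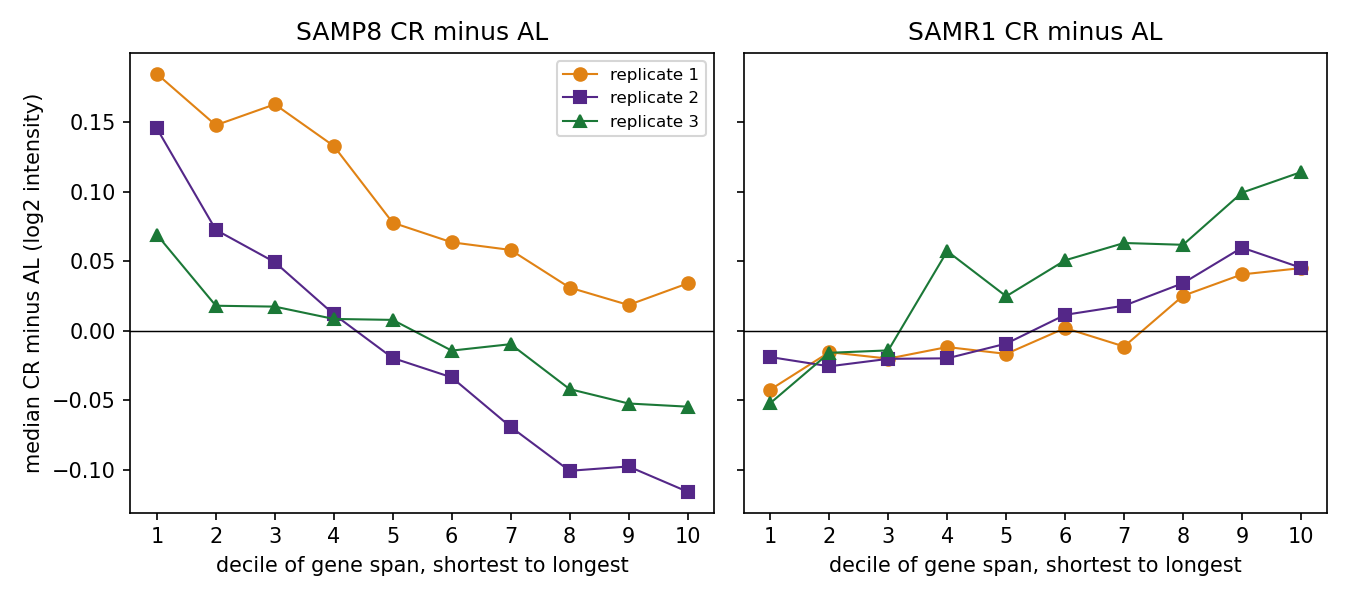
Median over genes of the CR minus AL difference (vertical axis, log2 intensity) by decile of gene span from shortest to longest (horizontal axis), for the 3 replicate pairs of SAMP8 (left) and of SAMR1 (right). In SAMP8 the shortest genes are highest in all 3 pairs, and in SAMR1 the longest genes are above the shortest in all 3 pairs.

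In SAMR1 the medians of the same lists were below 0, though not in every pair. The median of SAMR1-CR minus SAMR1-AL was -0.047 for complex I, -0.10 for the mitochondrial ribosome, -0.21 for the cytosolic ribosome and -0.061 for the proteasome core. Pair medians of replicates 1 to 3 were 0.026, -0.026 and -0.18 for complex I and -0.12, -0.012 and -0.11 for the mitochondrial ribosome. They were 0.033, -0.086 and -0.60 for the cytosolic ribosome and 0.085, -0.13 and -0.21 for the proteasome core. The difference of the list medians between strains was not tested. At an unadjusted p under 0.05, 295 probes were higher with CR serum in SAMR1 (2.76%) and 67 lower (0.627%), or 2.31% and 0.622% of genes. The correlation with gene span was 0.25 there. The difference between the strains was tested per probe as an interaction in the 12-sample limma fit, where 0 of 10681 probes passed an adjusted p of 0.05 (0%). An unadjusted p under 0.05 was found for 4.46% of probes, 180 with a positive and 296 with a negative interaction. This is below the share of 0.05 that such a level passes where no probe differs. The smallest adjusted p was 0.955. Of the 66 mitochondrial ribosomal genes 7 had an interaction at an unadjusted p under 0.05, as had 6 of 43 cytosolic ribosomal genes and 1 of 29 complex I genes, beside 3.65% of all genes. Mgp was higher with CR serum in SAMR1 too, by 1.02, with an interaction p of 0.878 in the limma fit, unadjusted. Tubb5 differed by -0.42 in SAMR1, in the same direction as in SAMP8.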

How the data were processed

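Total RNA of 12 cultures was measured on Illumina MouseRef-8 v1.1 arrays. The authors deposited the raw bead intensity of each probe on a linear scale, its detection p-value, and a Z score, found here to equal the centred log10 intensity in units of the SD of its array (to within 5e-10). Here log2 intensities were Z-normalized per array, rescaled by the mean SD and fitted with limma 3.58.1 (lmFit, eBayes with a trend; R 4.3.3, matplotlib 3.10.9) over 12 samples in 4 groups, with Benjamini-Hochberg adjustment over all tested probes at 0.05. Probes were named through GEO's annotation and RefSeq of GRCm38.p6: 20984 of 24613 probes had 1 symbol (20968 found in RefSeq), 1 had several and 3628 had none. The methods of the study give 3 independent experiments, and p-values cover only the spread between these samples.

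Replicate numbers were shared by the groups in the labels. Deviations from the group means correlated at 0.38, 0.43 and 0.11 for the same-numbered SAMP8 samples across probes, against -0.45 to 0.19 for differing numbers. In SAMR1 the same-numbered samples correlated at 0.58, 0.084 and 0.14, against -0.55 to 0.43 for differing numbers, and did not stand apart. The numbers were taken to pair the SAMP8 samples from the SAMP8 values alone. The paired fit holds the 6 SAMP8 samples with a term per number.

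Named genes were the 8 largest differences in each direction without overlap, with an unadjusted p under 0.05 and 1 direction in all pairs, the 10 smallest p of the 12-sample replicate block, the study's qPCR genes, and the 3 smallest p of each of 37 lists. Olig1, other marker genes, second probes, Mrpl43 and list members beyond those 3 were added after their values were seen. Members, lists and comparison were chosen with earlier results of these data known. Normalized intensity is given on the linear scale at the mean level of the 12 arrays. Precision is limited by how many arrays there are. The procedures were tested on simulated data.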

Additional observations from a re-analysis of the deposited data

Results flagged for a closer look

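Of the genes named, 11 had a probe with the same sign in all 3 SAMP8 pairs and the opposite in all 3 SAMR1 pairs. Of all genes tested, each counted at its brightest probe, 305 (3.87%) showed this pattern. These counts cannot be compared, because named genes were chosen in part for their SAMP8 differences and for going the same way in all SAMP8 pairs. Any probe of a named gene could also count, and for Eif4g2 and Steap4 only a dimmer probe did. The difference between strains was tested as the interaction in the limma fit of 12 samples, and its adjusted p was 0.955 or more for each of the 11. Eif4g2 differed by -0.90, -0.72 and -0.42 in the SAMP8 pairs and by 0.64, 0.81 and 0.53 in the SAMR1 pairs, an interaction of -1.34 ± 0.40 (SE; limma, unadjusted p = 0.00426). Cox17 differed by 0.45, 0.40 and 0.37 in the SAMP8 pairs and by -0.29, -0.52 and -0.20 in the SAMR1 pairs, an interaction of 0.74 ± 0.21 (SE; limma, unadjusted p = 0.00292). Steap4 differed by -0.54, -0.78 and -0.20 in the SAMP8 pairs and by 0.13, 0.33 and 0.080 in the SAMR1 pairs, an interaction of -0.69 ± 0.16 (SE; limma, unadjusted p = 0.000857). Rps15 differed by 0.20, 0.46 and 0.38 in the SAMP8 pairs and by -0.11, -0.62 and -0.25 in the SAMR1 pairs, an interaction of 0.67 ± 0.21 (SE; limma, unadjusted p = 0.00608). Ddit3 differed by 0.42, 0.46 and 0.53 in the SAMP8 pairs and by -0.084, -0.086 and -0.33 in the SAMR1 pairs, an interaction of 0.64 ± 0.22 (SE; limma, unadjusted p = 0.0119). Sod1 differed by 0.49, 0.43 and 0.25 in the SAMP8 pairs and by -0.25, -0.32 and -0.14 in the SAMR1 pairs, an interaction of 0.63 ± 0.23 (SE; limma, unadjusted p = 0.0178). Gstz1 differed by 0.63, 0.41 and 0.11 in the SAMP8 pairs and by -0.087, -0.071 and -0.040 in the SAMR1 pairs, an interaction of 0.45 ± 0.23 (SE; limma, unadjusted p = 0.0706). Mrps26 differed by 0.32, 0.59 and 0.22 in the SAMP8 pairs and by -0.031, -0.069 and -0.044 in the SAMR1 pairs, an interaction of 0.43 ± 0.13 (SE; limma, unadjusted p = 0.00626). Mrpl43 differed by 0.29, 0.38 and 0.32 in the SAMP8 pairs and by -0.18, -0.18 and -0.32 in the SAMR1 pairs, an interaction of 0.56 ± 0.18 (SE; limma, unadjusted p = 0.00795). Ndufb9 differed by 0.87, 0.40 and 0.020 in the SAMP8 pairs and by -0.045, -0.14 and -0.19 in the SAMR1 pairs, an interaction of 0.56 ± 0.28 (SE; limma, unadjusted p = 0.0699). Gfap, an intermediate filament gene of astrocytes, differed by -0.37, -0.0054 and -0.23 in the SAMP8 pairs and by 0.57, 0.20 and 0.80 in the SAMR1 pairs, an interaction of -0.72 ± 0.59 (SE; limma, unadjusted p = 0.238). For Eif4g2 and Steap4 these are the dimmer probes. The brightest probe of Eif4g2 was not opposed, with -0.13, -0.92 and 0.37 in the SAMP8 pairs, a difference of -0.065 in SAMR1 and an unadjusted interaction p of 0.632 (limma). That of Steap4 differed by -0.42 in SAMP8 and by -0.055 in SAMR1, and it was not opposed either, with an unadjusted interaction p of 0.0762 in the limma fit. Groups of 3 samples are too small for a test of single outlying samples, and none was run.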

How the results depend on the processing

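Each choice was changed in turn. The count of 0 probes past an adjusted p of 0.05 held in the limma fits of the 6 SAMP8 samples alone, of 10 samples, with the array set as a block, within the high-floor arrays, with quantile, median or normexp normalization, with the deposited Z scores, with no filter or a stricter one, without a trend, with the replicate block over 12 samples and on leaving out any SAMP8 sample (0 to 0). Array weights gave 1 probe, and a Z ratio of at least 1.5, the study's rule without a p, 2719 (1612 higher, 1107 lower). The replicate block over the 6 SAMP8 samples gave 401, of which 0 were left without a trend. Settings added after seeing the data gave, in that block, 329 with quantile normalization (228 higher, 101 lower), 34 with median centring (31 and 3), 308 with cyclic loess (225 and 83), 62, 40 and 700 without the pairs of replicates 1, 2 and 3, and 0 with the array set in place of the replicate number. Of the 401, 267 were among the 329, 34 among the 34, and 46, 35 and 355 among the 62, 40 and 700.

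The 585 probes at an unadjusted p under 0.05 became 1414 with 6 samples alone, 339 with 10 samples (omitting replicate 1 of SAMP8-AL and SAMR1-AL), 1093 with the replicate block over 12 samples, 1973 with that over 6, 952 within the high-floor arrays, 997 with no filter and 1952 with array weights. In the block of 6 the count was 1803 without a trend, 2306 with quantile normalization, 2282 with cyclic loess, and 1428, 1094 and 2141 without pairs 1, 2 and 3, and with the array set as a term 1807. Leaving out 1 SAMP8 sample gave 253 to 788, lowest without SAMP8-CR replicate 1. It was 291 when SAMP8-CR replicate 2 was left out. Omitting SAMP8-AL replicate 1 gave 308, with more lower than higher (144 higher, 164 lower). The interaction count was 0 in every fit that gave one. Of 94 probes of genes named in the text, 13 changed sign in at least 1 setting, none of them among the 58 at an unadjusted p under 0.05. Many of the 58 were named for a small p or for 1 direction in all pairs, so that their stable sign tests nothing. Dcn (1 probe), at 0.36, gave -0.61 with 10 samples, -0.13 with array weights and -0.61 to 1.29 on leaving out 1 sample. Dcn (a further probe), at 0.27, gave -0.61 with 10 samples, -0.20 with array weights and -0.61 to 1.1 on leaving out 1 sample. Dcn (a further probe), at 0.33, gave -0.33 with 10 samples and -0.33 to 1.00 on leaving out 1 sample. Eif4g2 (1 probe), at -0.23, gave 0.042 with median centring, 0.12 with no pair 2 in the block and -0.42 to 0.034 on leaving out 1 sample. Gabpa (1 probe), at -0.0044, gave 0.063 with median centring, 0.10 with no pair 2 in the block and -0.067 to 0.060 on leaving out 1 sample. Gfap, at -0.20, gave 0.038 with median centring. Gja1, at -0.31, gave 0.16 with median centring. Ndufa10, at -0.037, gave 0.29 with median centring and -0.079 to 0.022 on leaving out 1 sample. Ndufv1, at -0.067, gave 0.070 with 10 samples, 0.11 with the high-floor arrays, 0.34 with median centring, 0.0089 with cyclic loess in the block, 0.11 with no pair 1 in the block and -0.20 to 0.070 on leaving out 1 sample. Rbm12 (1 probe), at -0.030, gave 0.10 with median centring, 0.052 with no pair 2 in the block and -0.12 to 0.049 on leaving out 1 sample. Rbm12 (a further probe), at -0.041, gave 0.10 with median centring, 0.014 with array weights and -0.087 to 0.042 on leaving out 1 sample. Slc1a3, at -0.44, gave 0.073 with median centring. Ttc3 (1 probe), at 0.0011, gave -0.0027 with the high-floor arrays, -0.034 with quantile normalization, -0.0024 with cyclic loess in the block, -0.0027 with no pair 1 in the block, -0.065 with no pair 2 in the block and -0.036 to 0.071 on leaving out 1 sample. Named probes passed the threshold in 239 cases where the fit of 12 samples did not, kept side and direction in 2327 and changed sign in 54. Of 37 list medians 27 changed sign in at least 1 setting, and medians moved by more than the spread between pairs in 121 cases and by less in 804. The cause of these changes was not tested.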
